A study of Mus musculus with 6 samples.

Results

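The secreted and membrane-bound factors by which marrow stroma supports blood stem cells were followed as 6 genes named by symbol: Kitl, Angpt1, Thpo, Ptn, Mdk and Gas6. For each gene the probe set naming that gene only, with the highest mean over the 6 arrays, was to be used. A probe set was found for 5 of the 6, out of 19938 genes with such a probe set in the series. No probe set was matched to Thpo by symbol or Entrez identifier in the annotation used, so thrombopoietin was not analysed here.

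The cells were CAR cells (Cxcl12-abundant reticular cells), the stromal cells of bone marrow with high Cxcl12. They were sorted from femur and tibia of C57BL/6 mice aged 7 weeks, and the genotype label, Dmp1-Cre Cxcl12-gfp/+, was the same for both groups. CAR cells targeted by Dmp1-Cre and CAR cells not targeted by it gave 3 samples each, with 1 array per sample and the cells of 1 mouse as 1 sample. Dmp1-Cre is a Cre transgene under Dmp1 sequence, which is active mainly in late osteoblasts and osteocytes. Both groups carried the Cre and were separated by the sort, and the reporter that told targeted cells apart is not named in the labels. The design text gives 3 mice as the source of both populations, so, read that way, arrays of the 2 groups come from the same mice. Whether a replicate number marks the same mouse in both groups is not stated. The tests below treat the 6 arrays as independent and leave out any pairing by mouse. A fit with the replicate number as a block is given among the alternatives.

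Blood stem cells depend on signals from nearby stroma. Kitl encodes stem cell factor, the ligand of the receptor kinase Kit. Angpt1 encodes angiopoietin-1, which activates the receptor Tek (Tie2) on endothelial and stem cells. Thpo encodes thrombopoietin, a hormone made largely in the liver. Ptn and Mdk encode pleiotrophin and midkine, the small heparin-binding proteins of a family of their own. Gas6 encodes a vitamin K-dependent ligand of the receptor kinases Axl, Tyro3 and Mertk. Perivascular stroma that expresses Lepr and Cxcl12 is a known source of Kitl and Angpt1 in marrow.

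The RefSeq promoter windows of Kitl and Ptn are shown because Kitl is the best known of these factors in CAR cells and Ptn had the largest spread within groups of the 5 genes measured. Each window runs from 250 bases before to 50 bases after a RefSeq start of the gene, 5′ to 3′ on the gene's strand, in build GRCm38.p6. Windows were present for 4 of the 6 genes. The Kitl window lies at chr10:100015571-100015870 on the plus strand and the Ptn window at chr6:36810130-36810429 on the minus strand. Capitals mark matches on either strand to TATAAA, to the GC box GGGCGG, to CCCNNGGG (the core bound by EBF factors), to the forkhead core TAAACA or to the RUNX core TGTGGT.
Kitl: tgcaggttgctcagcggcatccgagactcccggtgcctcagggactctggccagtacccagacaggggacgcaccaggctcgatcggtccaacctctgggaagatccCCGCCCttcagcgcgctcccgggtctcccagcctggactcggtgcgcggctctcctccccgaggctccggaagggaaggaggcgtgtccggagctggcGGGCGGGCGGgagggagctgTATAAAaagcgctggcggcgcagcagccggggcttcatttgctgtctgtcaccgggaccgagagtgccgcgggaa
Ptn: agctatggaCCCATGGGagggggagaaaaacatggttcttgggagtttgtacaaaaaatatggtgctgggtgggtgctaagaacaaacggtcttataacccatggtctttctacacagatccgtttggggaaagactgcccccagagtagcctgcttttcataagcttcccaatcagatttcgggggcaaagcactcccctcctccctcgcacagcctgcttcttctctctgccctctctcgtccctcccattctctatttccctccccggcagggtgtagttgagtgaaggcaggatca

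The Kitl window held TATAAA at positions -25 to -20 from the start and 3 matches of the GC box, of which the 2 nearest the start overlapped each other. Its GC content was 68.7%, against a median of 52.7% over the 32851 windows of the same length. The Ptn window, at 52% GC, held neither TATAAA nor the GC box, and its only match was CCCNNGGG, at -241 to -234. The Gas6 window held 4 GC box matches between -66 and -3. Of all windows, 13.6% held TATAAA, 35.7% the GC box, 13.7% CCCNNGGG, 13.4% TAAACA and 16.8% TGTGGT. These matches describe letters only, since binding was not measured.

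The arrays' median intensities ran from 79.4 to 87.5, and log2 values of any 2 arrays correlated at 0.91 to 0.96 across the genes tested. All values below are log2 of the deposited RMA intensities, and a level of 1 gene's probe set is not compared with that of another. The sort was checked on Dmp1, which was at 9.89 to 11.28 on the targeted arrays and 6.91 to 7.51 on the others. Cxcl12 was at 12.22 to 12.65 on all 6 arrays. All 9 CAR cell markers of a fixed list had a level above the limit set for dim genes (6.00), with a mean of 11.18 to 11.62 on targeted and 11.43 to 11.80 on non-targeted arrays. The other 7 osteoblast and osteocyte markers with a value averaged 8.78 to 9.24 on targeted and 8.55 to 8.71 on non-targeted arrays. Among them Alpl and Col1a1 differed by 1.11 and 1.08, Ibsp and Sost by 0.05 and 0.04, and Phex by -0.22. Endothelial markers, relevant because endothelium also makes Kitl, averaged 5.88 to 6.17 on targeted and 5.86 to 6.17 on non-targeted arrays, and 6 of 12, among them Pecam1, Emcn and Tek, were dim. Neutrophil genes averaged 6.33 on targeted replicate 1 and 7.99 to 8.90 on the other 5 arrays. That mean covers unlike genes. S100a8 was at 6.97 on targeted replicate 1 and 11.31 to 11.97 on the other 5, and S100a9 at 8.43 and 11.61 to 12.06. Elane, Mpo, Prtn3 and Mmp8 stayed at 5.20 to 7.00 on all 6. The part of neutrophil transcript in the niche factor values was not tested. With 3 arrays a group the exact permutation test cannot go below a two-sided p of 0.1.

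Kitl and Angpt1 were both lower on average in targeted cells, Gas6 slightly so, Mdk was slightly higher and Ptn differed little. None of the 5 passed the limma test at an adjusted p under 0.05, as was true of all genes, with 0.00% of 13292 genes called and a smallest adjusted p of 0.384. That smallest value was of Dmp1, the check of the sort, which differed by 3.28 with no overlap and did not pass either. At an unadjusted p under 0.05 in this fit, 0 of the 5 passed, against 4.77% of all genes tested. The groups overlapped for all 5. Among all genes tested, all targeted arrays lay below the others for 5.76% and above them for 3.32%. The median difference of the 5 was -0.23, beside -0.0051 for all genes tested, of which 51.1% were lower in targeted cells.

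**Figure D1:**
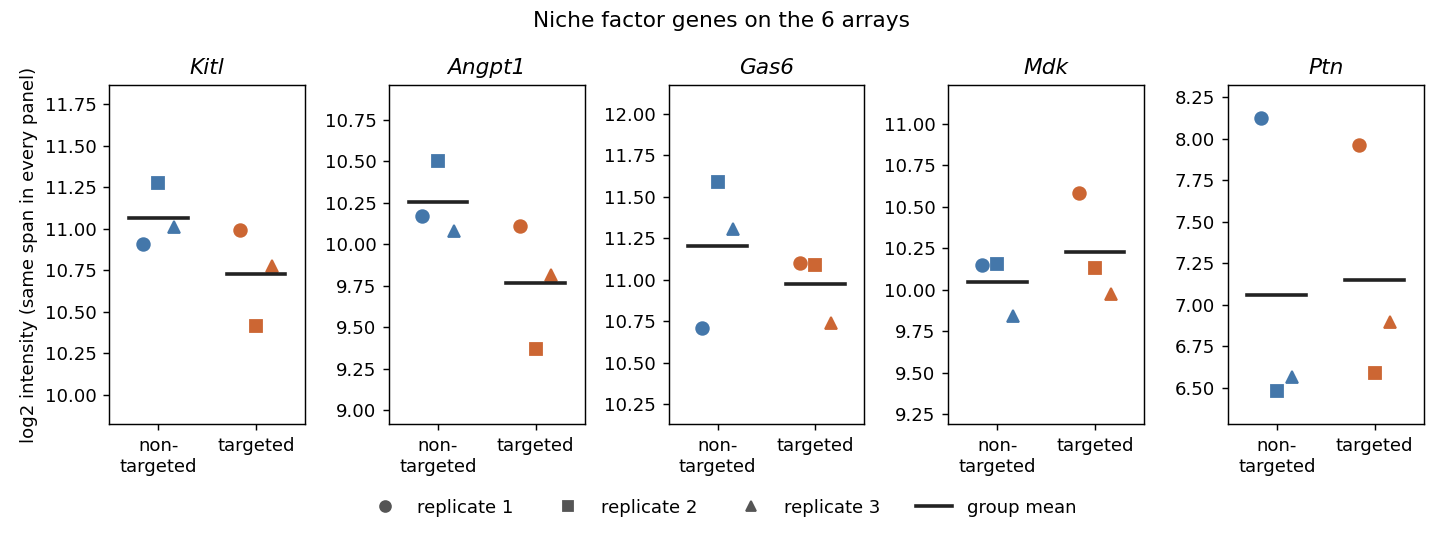
Log2 intensity of Kitl, Angpt1, Gas6, Mdk and Ptn on each array, non-targeted in blue and targeted in orange, with marker shape for the replicate number and a bar for the group mean. The y axes cover the same span. The groups overlap in every panel, and Ptn is near 8 on both arrays numbered 1 and below 7 on the others.

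Kitl was abundant in both populations. On the non-targeted arrays its log2 intensity was 10.91, 11.27 and 11.01, and on the targeted arrays 10.99, 10.42 and 10.78. Targeted replicate 1 lay among the non-targeted arrays, while targeted replicate 2 lay below all others. The means were 10.73 ± 0.29 against 11.06 ± 0.19 without targeting (SD, n = 3 for both), a log2 difference of -0.34 (SE 0.20, 95% interval -0.79 to 0.12). In linear terms targeted cells were 1.26-fold lower, and the interval runs from 1.73-fold lower to 1.09-fold higher. The difference did not pass (limma, adjusted p = 0.9998; exact permutation p = 0.2, two-sided). Without targeted replicate 2 it was -0.18 and without targeted replicate 1 it was -0.47. In settings added after seeing the data it was -0.07 without both arrays numbered 2 and -0.54 without both arrays numbered 1. Fewer cells with the transcript and less transcript per cell cannot be told apart in such sorted bulk samples.

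Angpt1 showed the largest difference of the 5 genes. Its log2 intensity was 10.17, 10.50 and 10.08 on the non-targeted arrays and 10.11, 9.37 and 9.81 on the targeted ones. Only targeted replicate 1 reached into the non-targeted range, lying between replicates 1 and 3 of that group. Means of 9.76 ± 0.37 and 10.25 ± 0.22 (SD, n = 3 each) gave a log2 difference of -0.49 (SE 0.22, 95% interval -1.01 to 0.03), lower in targeted cells. Its size exceeded that of 92.5% of the genes tested, and it did not pass (limma, adjusted p = 0.9998; exact permutation p = 0.2, two-sided). Without targeted replicate 2 the difference was -0.29. It was -0.66 without targeted replicate 1, the array with the lowest neutrophil genes, -0.16 without both arrays numbered 2 and -0.70 without both arrays numbered 1.

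Kitl and Angpt1 followed nearly the same course over the arrays. Both were highest on non-targeted replicate 2 and lowest on targeted replicate 2, as were 604 of the 13292 genes tested (4.54%). After each gene was centred on its mean, the root mean square difference between them was 0.11 over the 6 arrays, the smallest of the 10 pairs among the 5 genes. Those pairs reached 0.89, for Ptn and Gas6. Between same-numbered arrays, targeted minus non-targeted was 0.08, -0.86 and -0.23 for Kitl and -0.06, -1.13 and -0.27 for Angpt1, so the arrays numbered 2 differed most in both genes. The 2 tested genes nearest to Kitl by this measure were Git2, a GTPase-activating protein gene (0.035), and Kmt2a, a histone methyltransferase gene (0.049). Nearest to Angpt1 were Pon2, a paraoxonase gene (0.056), and Rps6ka3, a ribosomal S6 kinase gene (0.072). Foxc1, a transcription factor gene needed for CAR cells and named here after its values were seen, also ran from 10.50 on non-targeted replicate 2 to 9.57 on targeted replicate 2. Of the other CAR cell markers, Cxcl12 and Lepr were highest and lowest on those same arrays. Vcam1, Adipoq, Ebf1, Ebf3, Pdgfra and Pdgfrb were not.

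**Figure D2:**
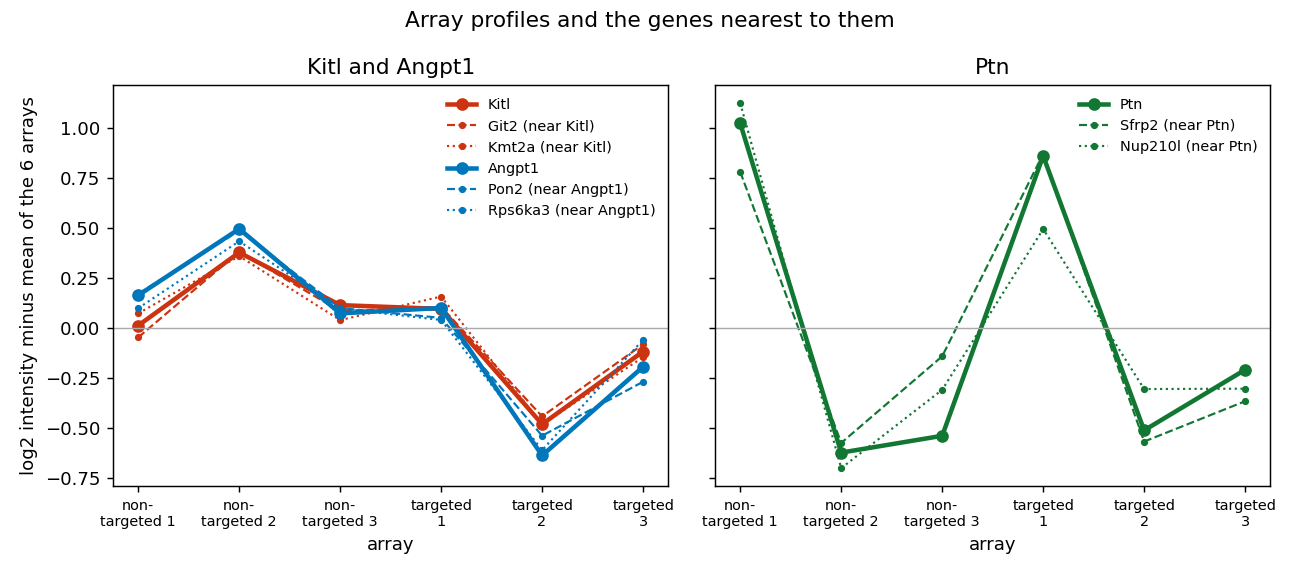
Log2 intensity minus the mean of the 6 arrays for Kitl and Angpt1 (left) and Ptn (right), each with the 2 genes nearest in profile. Lines join 1 gene's points and imply no order. Kitl and Angpt1 peak on non-targeted replicate 2 and are lowest on targeted replicate 2, while Ptn is high on both arrays numbered 1.

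Gas6 was spread more widely within the non-targeted group than between the groups. It was at 10.71, 11.59 and 11.31 on the non-targeted and 11.10, 11.09 and 10.74 on the targeted arrays. Non-targeted replicate 1 was the lowest of the 6. The means were 10.98 ± 0.21 against 11.20 ± 0.45 (SD, n = 3 each), a log2 difference of -0.23 (SE 0.24, 95% interval -0.80 to 0.34) that did not pass (limma, adjusted p = 0.9998; exact permutation p = 0.5, two-sided). Leaving out non-targeted replicate 1 took it to -0.47 and leaving out non-targeted replicate 2 to -0.03. Its nearest profiles were those of Uqcrc2, a subunit gene of respiratory complex III (0.042), and Arhgef11, a guanine nucleotide exchange factor gene (0.051).

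Mdk and Ptn, the members of the midkine family, differed from each other in how they varied. Mdk was at 10.15, 10.16 and 9.84 on the non-targeted and 10.58, 10.13 and 9.97 on the targeted arrays. Its top value was that of targeted replicate 1, and the other targeted arrays lay inside the non-targeted range. The means of 10.23 ± 0.32 and 10.05 ± 0.18 (SD, n = 3 each) gave a log2 difference of 0.18 (SE 0.20, 95% interval -0.29 to 0.65), which did not pass (limma, adjusted p = 0.9998; exact permutation p = 0.6, two-sided). Without targeted replicate 1 it was 0.0046. Brms1, a transcriptional repressor gene, and Noc4l, a ribosome assembly gene, had the nearest profiles to Mdk (0.055 and 0.061).

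Ptn set both arrays numbered 1 apart from the other 4 and did not separate the groups. It was at 8.13, 6.48 and 6.56 on the non-targeted and 7.96, 6.59 and 6.89 on the targeted arrays. Both arrays numbered 1 were at least 1.07 above the other 4, while the groups interleaved. Those other 4 arrays, at 6.48 to 6.89, were not far above the limit set for dim genes (6.00). The means were 7.15 ± 0.72 and 7.06 ± 0.93 (SD, n = 3 each), a log2 difference of 0.09 (SE 0.51, 95% interval -1.08 to 1.27; limma, adjusted p = 0.9998; exact permutation p = 0.8, two-sided). That interval, from 2.12-fold lower to 2.41-fold higher, is the widest of the 5 genes in this fit. The within-group SD of 0.83 was above that of 98.4% of the genes tested. In the fit with the replicate number as a block, the Ptn interval was -0.40 to 0.58, narrower than those of Kitl, Angpt1 and Gas6. Xist, the non-coding RNA of the inactive X chromosome, was at 11.31 and 12.00 on the same arrays numbered 1 and at 5.64 to 5.88 on the other 4, and Kdm5d, a Y-linked gene, was at 5.96 to 6.02 and 6.82 to 7.79. The part of this difference between arrays in the Ptn values was not tested. The nearest profiles were those of Sfrp2, a secreted Wnt modulator gene, and Nup210l, a nucleoporin-like gene, at distances of 0.20 and 0.21. The sign of the Ptn difference turned in 3 of the 6 fits that left out 1 array, with a range of -0.31 to 0.63.

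**Figure D3:**
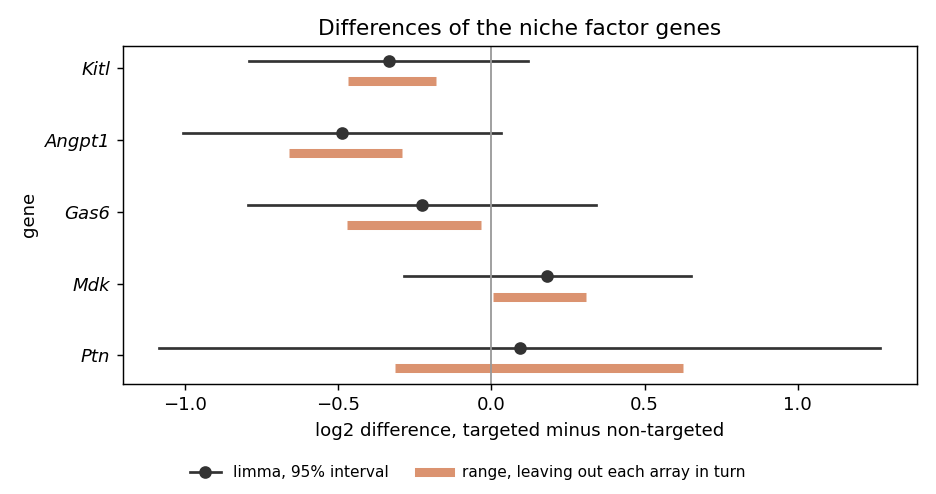
Log2 difference, targeted minus non-targeted, of the 5 genes, with the 95% interval of the limma fit (black) and the range of values when each array is left out in turn (orange). Kitl, Angpt1 and Gas6 stay below 0 and Mdk above 0 in those fits, Ptn crosses 0, and every interval includes 0.

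The receptors and binding partners of these factors were measured in the same cells, on a list chosen with earlier results of these data known. Of 19 genes, 18 had a value and 14 were tested. In targeted cells 8 were higher and 6 lower, with a median of 0.03 and 0 past the threshold. Among the brightest, Lrp1, a midkine receptor, was at 10.67 ± 0.26 against 10.69 ± 0.16 (SD, n = 3 each). The syndecans, heparan sulfate proteoglycans that bind pleiotrophin and midkine, differed in opposite directions, Sdc3 by 0.45 (SE 0.25) and Sdc1 by -0.59 (SE 0.30). Ncl, Itgb1 and Sdc4 differed by 0.01, -0.20 and -0.28. Itgb3, named after its values were seen, was at 6.84 to 7.54 on the targeted and 6.60 to 6.66 on the other arrays. It was the only listed receptor gene with all targeted arrays above the others, beside 3.32% of all genes tested. Itgb3 did not pass (limma, adjusted p = 0.9998).

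Receptors that define each ligand's pathway were named after their values were seen. Kit, the stem cell factor receptor, was at 7.48 to 8.52 on the non-targeted and 7.68 to 8.57 on the targeted arrays, and these groups overlapped almost wholly (difference 0.04, SE 0.33). Tek, the angiopoietin receptor, was dim at 5.24 to 5.48 on all 6 arrays, as was Ptprz1, the receptor phosphatase bound by pleiotrophin, at 4.49 to 5.96. Among the Gas6 receptors Axl differed by -0.19 (SE 0.24), Mertk by 0.16 (SE 0.17) and Tyro3 by 0.12 (SE 0.17). Markers of stem and progenitor cells, a list that includes Kit, averaged 6.24 to 6.43 on targeted and 6.26 to 6.48 on non-targeted arrays. Cd34 and Ptprc were dim, and the part of such cells in the Kit level was not tested.

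Related ligands gave a mixed picture, with 7 of 9 tested lower in targeted cells, 2 higher and a median of -0.17. The angiopoietins differed in direction. Angpt4, another Tek ligand, was at 8.17, 8.09 and 8.54 on the non-targeted and 9.14, 8.81 and 9.10 on the targeted arrays. All its targeted values lay above all others, a log2 difference of 0.75 (SE 0.18, 95% interval 0.33 to 1.18), or 1.69-fold, which did not pass over all genes (limma, adjusted p = 0.758; exact permutation p = 0.1, two-sided, the smallest possible). Angpt2, a context-dependent antagonist of Angpt1, was at 8.76, 8.06 and 7.44 against 8.07, 7.49 and 6.25, a difference of -0.82 (SE 0.49). Its groups overlapped, so that of the 3 angiopoietins Angpt4 alone had groups that did not. All targeted arrays lay above the others for 3.32% of all genes tested. Whether these differences differ from each other was not tested.

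Svep1, a large extracellular matrix protein gene, differed by -0.50 (SE 0.22). Csf1, the macrophage growth factor gene, was at 11.42 ± 0.13 against 11.59 ± 0.27 (SD, n = 3 each). Flt3l, a progenitor cytokine gene, differed by 0.21 (SE 0.19) and Angptl4 by -0.02 (SE 0.24). Pros1, the other vitamin K-dependent ligand of the Axl, Tyro3 and Mertk receptors and named after its values were seen, ranged from 7.15 to 8.66 on non-targeted and from 6.55 to 8.11 on targeted arrays, a difference of -0.79 (SE 0.50).

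**Figure D4:**
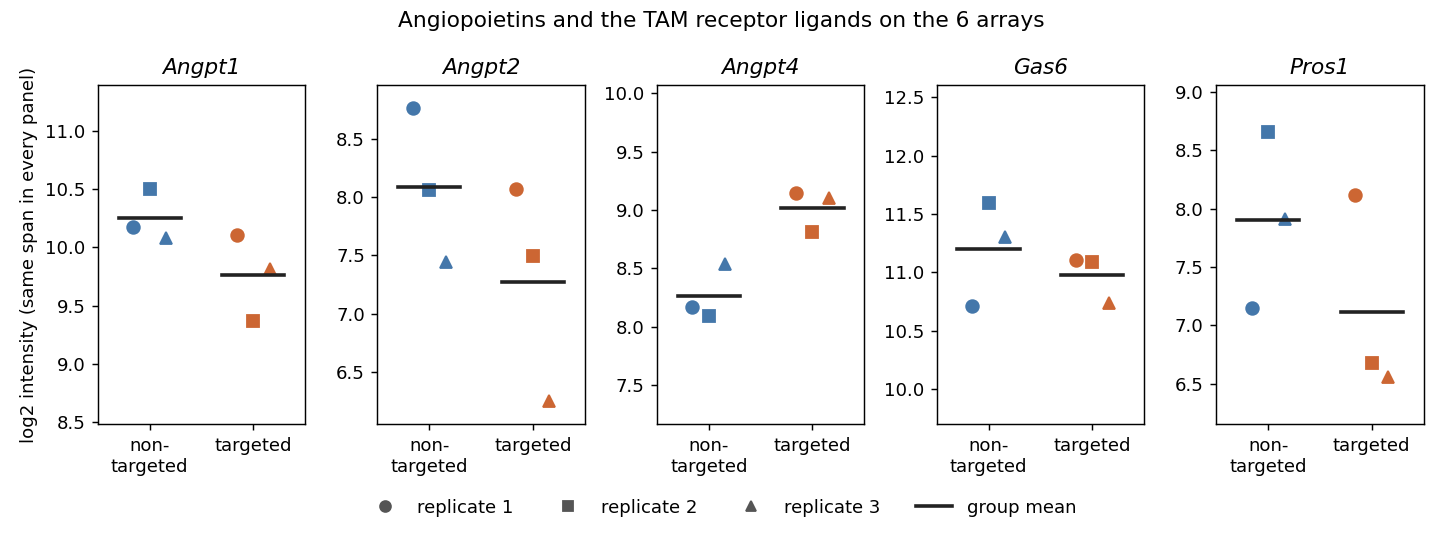
Log2 intensity of the angiopoietins Angpt1, Angpt2 and Angpt4 and of Gas6 and Pros1, ligands of the Axl, Tyro3 and Mertk receptors, on each array, drawn as for the niche factor genes. In Angpt4 all 3 targeted arrays, at 8.81 to 9.14, lie above all 3 non-targeted arrays, and in the other 4 genes the groups overlap.

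Among the enzymes that release or modify the factors, and their inhibitor Timp3, the differences ran from -0.35 to 0.59. Of 9 genes tested, 7 were higher and 2 lower, with a median of 0.06 and 0 past the threshold. Mmp14, a membrane metalloproteinase, differed by 0.34 (SE 0.21). Mmp9, a secreted metalloproteinase that can release stem cell factor and that was named after its values were seen, had the largest difference of the list at 0.59 (SE 0.35), with overlapping groups. The sheddases Adam17 and Adam10 differed by 0.06 and -0.0075, and the proprotein convertase Furin by 0.08. Vkorc1, which recycles the vitamin K that carboxylation of Gas6 requires, differed by -0.35 (SE 0.24) and its paralogue Vkorc1l1 by 0.0045. The carboxylase Ggcx, named after its values were seen, was at 7.60 in both groups, spread from 6.64 to 8.39 in targeted cells.

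In the remaining pathway lists 0 genes passed. Heparan and chondroitin sulfate synthesis, which makes the chains that bind pleiotrophin and midkine, had 4 of 12 genes higher and 8 lower with a median of -0.07. Signalling genes after the receptors had 7 of 18 higher and 11 lower with a median of -0.07. Other niche signals, including Cxcl12, Vcam1 and Il7, had 2 of 12 higher and 10 lower with a median of -0.33, against -0.0051 for all genes tested. In that list Il7, the lymphoid cytokine gene, was at 8.32 to 9.11 on targeted and 9.52 to 10.12 on non-targeted arrays, a difference of -1.03 (SE 0.25; limma, adjusted p = 0.758). Ccl2, a monocyte chemokine gene, differed by -0.62 (SE 0.20) and Lif, a cytokine gene, by 0.29 (SE 0.16). These 3, named after their values were seen, were the tested genes of the list whose groups did not overlap. Il7 and Ccl2 were lower and Lif higher on all targeted arrays. Among all genes tested, all targeted arrays lay below the others for 5.76% and above them for 3.32%. Fgf2, left out of the test as dim, was also lower on all targeted arrays, at 4.97 to 5.36 against 5.54 to 5.96. The 9 CAR cell markers were all lower on average, with a median of -0.25 and a range of -0.49 to -0.11, beside -0.34 for Kitl and -0.49 for Angpt1. Lepr, one of those markers, was lower on all targeted arrays, and the part of the CAR marker level in the niche factor values was not tested.

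**Figure D5:**
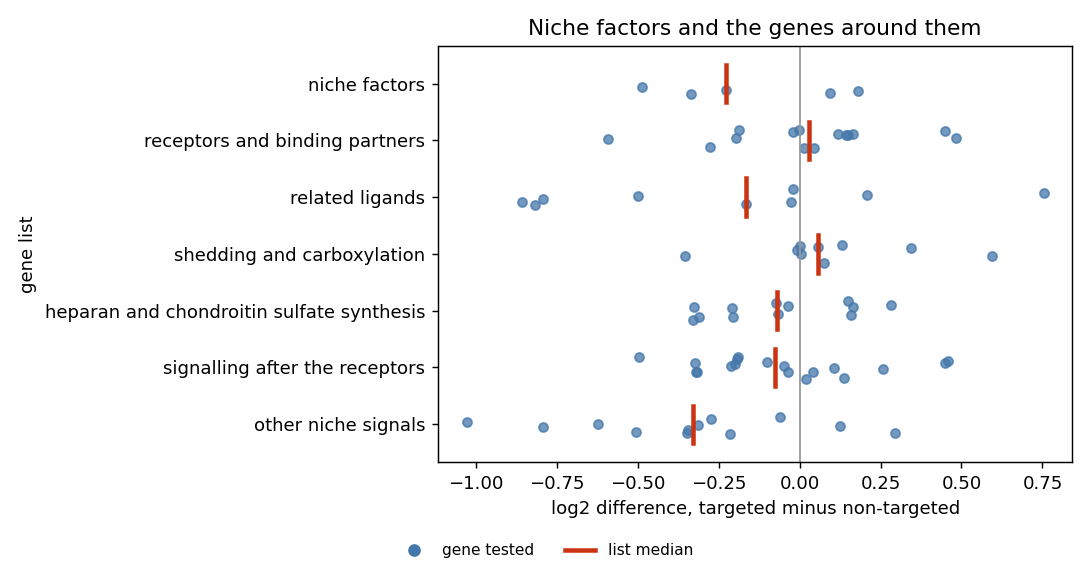
Log2 difference, targeted minus non-targeted, of each tested gene (points, jittered vertically) in the niche factor list and the 6 pathway lists, with list medians as bars. The medians run from -0.33 for other niche signals to 0.06 for shedding and carboxylation genes, and no point passed the test.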

How the data were processed

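Biotinylated cDNA of the sorted cells was hybridised to mouse gene arrays. The deposited values were intensities per probe set, and the submitters' processing notes name RMA and version 1.4 of the Affymetrix Expression Console. They were on a linear scale, and log2 was taken. The genome build is not given in the sources used here.

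Of 35556 probe sets, 21789 named 1 gene in the platform annotation, 1621 named several and 12146 were not listed. RefSeq's GRCm38.p6 table supplied current symbols by Entrez identifier (21698 matched). The brightest probe set stood for a gene, and the dimmest 33.3% of genes were left out, which left 13292. Targeted and non-targeted arrays entered a limma fit (version 3.58.1, R 4.3.3, no covariate), with Benjamini-Hochberg adjustment over all genes tested and a threshold of 0.05. The fit was tested on simulated data. Intervals are moderated 95% intervals. The number of arrays limits the precision.

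The genes followed and the gene lists were chosen with earlier results of these data known. Named beside the 6 genes were up to 6 of the brightest members of each list that bind or process them, and the 2 nearest profiles of each gene whose values spanned at least 0.5. Alternatives covered the dim filter, array scaling, variance model, probe set choice, the replicate number as a block, and each array left out.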

Additional observations from a re-analysis of the deposited data

How the results depend on the processing

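Kitl, Angpt1 and Gas6 stayed lower and Mdk higher in targeted cells under all 19 alternatives, none of which brought any of the 5 genes past the threshold. Not all of these settings could test the direction. The dim filter, variance models other than array weights, the probe set choice and the replicate block left each difference unchanged. Only array scaling, array weights and leaving out arrays could change a sign, and these fits drew on the same arrays. Kitl ran from -0.54 to -0.07, Angpt1 from -0.70 to -0.16, Gas6 from -0.54 to -0.03 and Mdk from 0.0046 to 0.31. The ends of these ranges came from fits on fewer arrays. Their lowest adjusted p (limma) were 0.284, 0.270, 0.376 and 0.476. Unadjusted, the lowest p (limma) were 0.032, 0.018, 0.047 and 0.157, each the smallest over the 19 alternatives. Whether Kitl, Angpt1 and Gas6 fell under an unadjusted 0.05 thus depended on the setting. Fits without both arrays numbered 1, added after seeing the data, gave -0.54 for Kitl, -0.70 for Angpt1, -0.54 for Gas6 and 0.22 for Ptn. Ptn changed sign when non-targeted replicate 2 (-0.20), non-targeted replicate 3 (-0.15) or targeted replicate 1 (-0.31) was left out, and reached 0.63 when non-targeted replicate 1 was.

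Over all genes 1 gene, Dmp1, passed with array weights (adjusted p = 0.0259, limma) and 1, again Dmp1, with a fixed replicate block (adjusted p = 0.0153, limma), in place of 0, and 0 passed with a random replicate block. Deviations of same-numbered arrays from their group means correlated at -0.26, -0.12 and 0.07 over genes. In groups of 3, 1 unusual array shifts the deviations of all 3, so this measure cannot decide whether the numbers mark pairs. The fit without a block had been fixed beforehand. By the design text both populations came from 3 mice, and Xist was high on both arrays numbered 1 alone. Kdm5d, Uty and Eif2s3y were lowest on the arrays numbered 1 and highest on those numbered 2 in both groups. These levels are a hint from the data that a number may mark a mouse. In the fixed block fit the SE of Ptn was 0.21 in place of 0.51, with a difference of 0.09, and no call of the 5 genes changed. Each of the 5 had 1 probe set, so no other probe set could be tried.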

Other observations

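Ptn belonged to a small set of genes whose level set the arrays numbered 1 apart. Of 13292 genes tested, 5 had both arrays numbered 1 at least 1 log2 unit above the other 4, and 5 had them at least 1 below. The limit of 1 was set after the gap of Ptn, 1.07, had been seen. The same count was not made for other pairs of arrays, so these counts have no background beside them. Beside Ptn, the genes above were Xist, Car1, a carbonic anhydrase gene of erythroid cells, Mc2r, the corticotropin receptor gene, and Adamts5, an aggrecan-cleaving protease gene. Car1 was at 11.08 and 10.90 on the arrays numbered 1 and at 8.74 to 9.76 on the others. Adamts5 was at 9.13 and 9.04 against 7.14 to 7.96. The genes below were Serpina3n, a protease inhibitor gene, Penk, the proenkephalin gene, Lrrn1, Cldn10 and Gmfg. Serpina3n was at 8.04 and 7.78 against 10.10 to 11.52 and Penk at 6.80 and 5.36 against 8.60 to 9.39. The arrays numbered 1 also had the high Xist level and, in both groups, the lowest levels of the Y-linked genes Kdm5d, Uty and Eif2s3y. By these genes each group appears to hold samples of both sexes, with the arrays numbered 1 female. No fit had a separate term for sex, and its part in the values was not tested. Number, Xist level and sex cannot be told apart here.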
